A study of Mus musculus with 3 samples.

Results

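Open chromatin at places where ends of different genes meet was described in cultured mouse hematopoietic stem cells (HSCs), the rare bone marrow cells that give rise to all blood lineages. Overlapping ATAC-seq peaks of 3 peak lists were merged into 24981 regions. A region belonged to the set when it held a peak in every list, was narrower than 1500 bp after merging, and lay within 1000 bp of an end of at least 2 different protein-coding genes. Of the 13670 regions common to the lists, 12377 were narrower than that limit and 1383 of these met the rule, which is 11.2% of the narrow common regions. Another 5964 narrow common regions lay at an end of 1 gene and 5030 at none. The set was thus chosen by measured values, the presence of a peak in every list and the merged width, and these are no finding here. The label of the set holds for its rule, but a gene end is not always a start: only 685 of the 1383 regions joined 2 divergent starts by strand.

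HSCs were sorted by flow cytometry from adult mTOR WT control mice, genotype Mx1-Cre-/-;mTORflox/flox, that had received poly(I:C), an agent that induces interferon. All 3 groups share this genotype and treatment, and since the mice lack the Mx1-Cre transgene their floxed mTOR alleles stay intact. The cultured cells were given the solvent DMSO, 200 nM AZD2014 or 1 µM rapamycin, with 1 library for each. AZD2014 blocks the kinase site of mTOR, the kinase that couples nutrients to growth, whereas rapamycin acts through FKBP proteins on a separate site, so the doses and the modes of action both differ. ATAC-seq uses a transposase to insert adapters into accessible DNA, here in 50000 cells for each library. With 1 library for each condition there is no spread between replicates, and no test or p-value is given.

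A bidirectional promoter is a stretch of DNA between a pair of genes that lie head to head on opposite strands and are transcribed away from each other. Such promoters are common in mammals, are often rich in CG dinucleotides, usually lack a TATA box, and are known for housekeeping genes of DNA repair, chaperones, mitochondria and metabolism. The pair shares a nucleosome-depleted stretch in which each gene assembles its own transcription complex. Neighbouring genes can also meet tail to head, with the end of one near the start of the next, and then the accessible site usually belongs to the start.

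To show what the accessible stretch between 2 divergent starts looks like, 12 of these stretches are printed, each from the start of the gene on the minus strand to the start of the gene on the plus strand. Sequences are from the RefSeq promoter table on GRCm38.p6, the assembly that mm10 names, and are written on the plus strand, 5′ to 3′. Capitals mark letters that match one of the motifs searched, on either strand. These 12 were chosen after the values were seen, among pairs whose listed starts are also the outermost ends of the genes.
The first 3 had ranks, as defined below, of 74.3 or more in every list. Rpa3 encodes the small subunit of the replication protein that coats single-stranded DNA (chr6:8259141-8259288), with 2 CCAAT boxes and an SP/KLF match.
Rpa3/Umad1: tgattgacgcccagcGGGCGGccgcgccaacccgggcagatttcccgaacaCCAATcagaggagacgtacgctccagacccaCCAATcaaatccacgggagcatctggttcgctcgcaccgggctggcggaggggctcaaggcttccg
Psmb9, a catalytic subunit of the immunoproteasome, and Tap1, which carries peptides for antigen presentation, share 227 bp (chr17:34187330-34187556) with a CCAAT box and an SP/KLF match.
Psmb9/Tap1: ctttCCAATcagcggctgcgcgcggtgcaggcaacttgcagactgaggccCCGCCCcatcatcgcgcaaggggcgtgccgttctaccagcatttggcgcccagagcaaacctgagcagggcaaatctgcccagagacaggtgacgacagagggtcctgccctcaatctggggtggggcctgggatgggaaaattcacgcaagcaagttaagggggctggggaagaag
Mrpl32 of the mitochondrial ribosome and Psma2 of the proteasome core (chr13:14613037-14613242) are joined by a stretch with 4 NRF1 matches, of which only the last 2 overlap each other.
Mrpl32/Psma2: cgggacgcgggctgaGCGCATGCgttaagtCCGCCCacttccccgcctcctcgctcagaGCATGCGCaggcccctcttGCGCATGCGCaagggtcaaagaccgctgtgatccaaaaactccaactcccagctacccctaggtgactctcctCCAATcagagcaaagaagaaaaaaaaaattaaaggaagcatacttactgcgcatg
The following 5 show NRF1 again and then other motif types. Polh encodes a DNA polymerase that copies past ultraviolet damage, and Xpo5 exports microRNA precursors (chr17:46202641-46202811, with 4 NRF1 matches).
Polh/Xpo5: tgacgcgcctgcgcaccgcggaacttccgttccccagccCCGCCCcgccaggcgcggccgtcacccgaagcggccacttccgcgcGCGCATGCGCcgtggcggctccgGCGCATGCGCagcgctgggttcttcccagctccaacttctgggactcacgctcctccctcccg
Imp4 takes part in ribosomal RNA processing, and its stretch with Ccdc115 (chr1:34439672-34439829) holds a YY1 match, 2 CCAAT boxes and an E-box.
Ccdc115/Imp4: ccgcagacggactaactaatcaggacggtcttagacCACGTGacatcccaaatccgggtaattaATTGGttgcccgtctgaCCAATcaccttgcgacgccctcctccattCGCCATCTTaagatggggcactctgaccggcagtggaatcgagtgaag
Cog8 belongs to a Golgi tethering complex and Nip7 to ribosome assembly (chr8:107056737-107056877, with an ETS match).
Cog8/Nip7: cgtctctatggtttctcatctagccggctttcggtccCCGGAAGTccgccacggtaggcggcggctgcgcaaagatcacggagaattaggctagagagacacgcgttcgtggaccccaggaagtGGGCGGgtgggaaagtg
Atp5pb is a stalk subunit of ATP synthase and Wdr77 a partner of an arginine methyltransferase (chr3:105959263-105959498, with 2 copies of the CTCGCGAG palindrome).
Atp5pb/Wdr77: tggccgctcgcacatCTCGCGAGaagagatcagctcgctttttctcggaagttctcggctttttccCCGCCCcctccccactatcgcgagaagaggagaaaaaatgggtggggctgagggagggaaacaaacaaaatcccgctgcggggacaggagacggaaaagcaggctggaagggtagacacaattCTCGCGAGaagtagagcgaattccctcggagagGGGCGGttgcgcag
Ppp1r15a directs a phosphatase to the translation factor eIF2 under stress (chr7:45526268-45526330), and its 63 bp with Plekha4 hold a complete CRE.
Ppp1r15a/Plekha4: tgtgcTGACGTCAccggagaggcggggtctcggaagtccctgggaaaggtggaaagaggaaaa
Next are 2 of the histone pairs (chr13:22035643-22035821 and chr13:22042949-22043198), which hold 3 and 5 CCAAT boxes and no SP/KLF match.
H2ac12/H2bc12: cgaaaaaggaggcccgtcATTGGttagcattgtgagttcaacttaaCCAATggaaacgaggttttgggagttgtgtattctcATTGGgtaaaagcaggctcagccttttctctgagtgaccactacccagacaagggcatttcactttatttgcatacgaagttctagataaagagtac
H2ac11/H2bc11: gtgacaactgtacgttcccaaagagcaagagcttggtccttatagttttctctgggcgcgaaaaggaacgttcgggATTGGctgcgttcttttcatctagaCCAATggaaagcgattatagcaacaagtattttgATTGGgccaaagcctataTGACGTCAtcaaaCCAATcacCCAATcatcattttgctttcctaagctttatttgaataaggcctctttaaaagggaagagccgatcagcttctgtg
The last 2 were the stretch of a pair at the top of every list (chr10:105841380-105841479) and that of Taf6, a subunit of the general transcription factor TFIID, with Cnpy4 (chr5:138187451-138187535), whose rank differed most between lists among these 12.
Mettl25/Ccdc59: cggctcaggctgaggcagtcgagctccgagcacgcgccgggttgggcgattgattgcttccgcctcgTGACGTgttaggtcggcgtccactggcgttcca
Taf6/Cnpy4: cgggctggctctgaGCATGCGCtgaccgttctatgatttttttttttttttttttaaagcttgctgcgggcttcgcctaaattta

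The lists held 17189 peaks for DMSO, 21321 for AZD2014 and 18233 for rapamycin, with median peak widths of 610, 700 and 710 bp. Read totals are unknown, so the depth behind a peak cannot be given. Of 12 HSC marker genes, 4 had a gene-end peak in the DMSO list, 6 in the AZD2014 list and 4 in the rapamycin list, and Fgd5, Gata2, Ly6a, Procr and Slamf1 were among those with none in any list. T cell markers had none of 4 in any list, whereas 3 of 4 erythroid markers had one in every list. Other listed markers had at most 1 of 4, and the non-blood set 1, 2 and 1 of 5. The deposited score is the authors' value for each peak, and no list holds one below 50. It is used here to rank regions within a list: the rank is the percentile of a region's highest peak score among the 13670 common regions, from 0 to 100, with 100 the highest.

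The 1383 regions touched 2673 different protein-coding genes, 12.2% of the 21887 in the table. Nearly all joined just 2 genes (1340 regions), 42 joined 3, and 1 joined 5. That region, chr17:47687532-47688540, lay at ends of Gm20517, Usp49, Tomm6, Frs3 and Prickle4, of which Usp49 is a ubiquitin protease and Tomm6 a small subunit of the mitochondrial outer membrane translocase. In 1374 regions each list had exactly 1 peak, so that a shared region was 1 peak seen 3 times. Counts were highest on chromosomes 11, 7 and 2, with 135, 134 and 120 regions, and the Y chromosome none. In 108 regions all genes but 1 were predicted genes named Gm or Rik, and these are counted but not named.

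Strand was known for 79.9% of genes, and 1010 regions of 2 genes could be classed by it. Divergent starts made up 685 of these (67.8%), a start beside an end, called tail-to-head here, 288 (28.5%), 2 starts on the same strand 29 and 2 ends 8. The remaining regions were 43 with 3 or more genes and 330 in which a strand was not given. Among tail-to-head regions, 268 of 288 joined genes on the same strand, in series along it.

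Divergent starts lay close together. The distance from start to start ran from -1716 to 1538 bp with quartiles of -95, 38 and 135 bp, where a value below 0 means that the outermost gene models overlap. It was 0 to 300 bp in 374 regions (54.6%), below 0 in 236, 300 to 1000 bp in 55 and 1000 bp or more in 20. The region covered both starts in 585 of 685 cases (85.4%) and neither in 16. Those 16 lay at a median of 456.5 bp from the nearer start, and among them was the region at Trp53, the tumour suppressor p53, and Wrap53, which guides telomerase RNA.

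**Figure D1:**
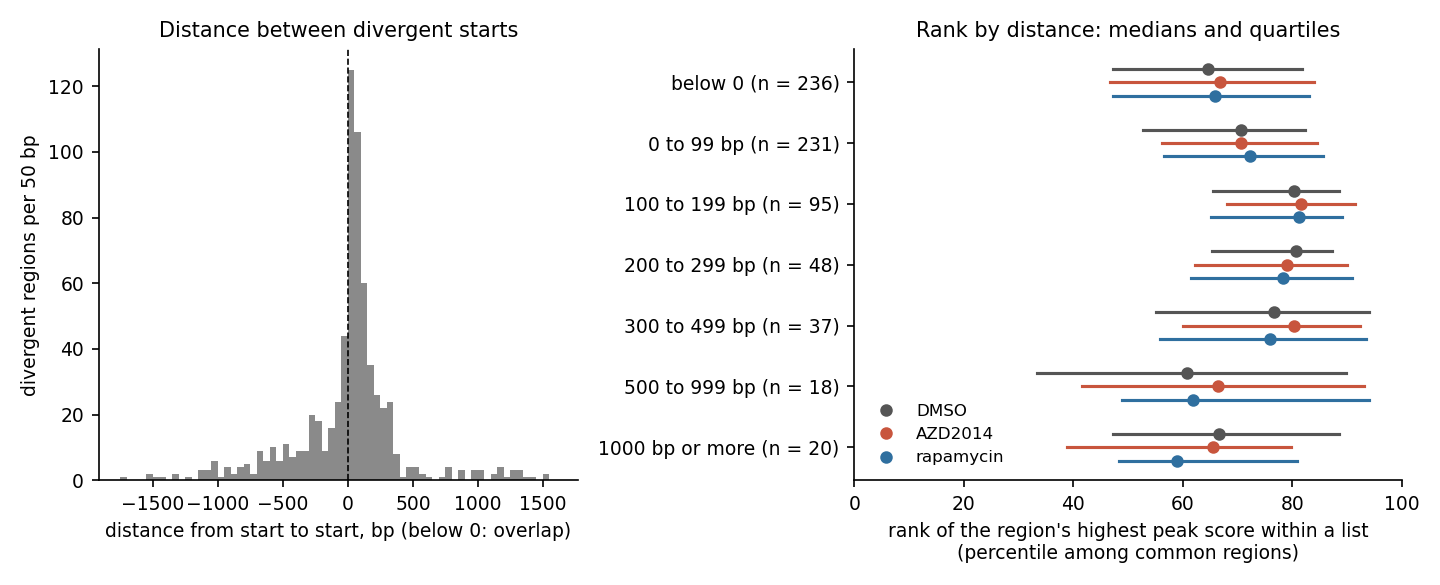
Left, number of divergent regions (y axis) by distance from start to start in bp (x axis, 50 bp bins, overlap below 0). Right, median rank (dots) and quartiles (lines) in each list by that distance, in percentiles: the 95 regions at 100 to 200 bp had medians of 80.3, 81.6 and 81.3, above the 236 overlapping pairs at 64.6, 66.7 and 65.8.

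The middle of the peak was near the starts but more often beside the stretch between them than in it. It lay between the starts in 289 of 685 divergent regions in the DMSO list (42.2%), 277 in the AZD2014 list (40.4%) and 273 in the rapamycin list (39.9%). The middle of the peak was within 200 bp of the midpoint in 77.4% of divergent regions in the DMSO list, 77.5% in the AZD2014 list and 76.4% in the rapamycin list. Its median distance from the midpoint was 85 bp, 85.5 bp and 97 bp, in the same order. The median distance from start to start was 38 bp, against median peak widths of 846, 1014 and 959 bp in these regions. The part of these lengths in the shares was not tested. In the tail-to-head regions the peak sat at the start: its middle was nearer the start than the other gene's end in 272, 267 and 271 of 288 regions. Median distances were 83.75, 107 and 96.25 bp to the start and 708, 707.5 and 713.5 bp to the end. For these regions the rule therefore found a promoter peak with a second gene's tail inside the window.

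**Figure D2:**
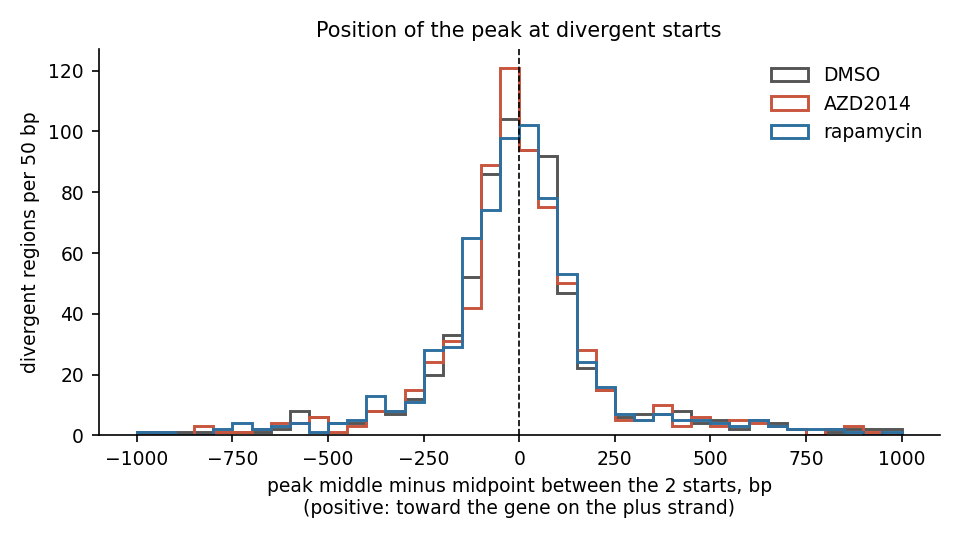
Number of divergent regions (y axis, 50 bp bins) by the distance of the peak's middle from the midpoint between both starts in bp (x axis), with 1 line for each list. The 3 lines lie over each other with their tops near 0, with 77.4%, 77.5% and 76.4% of regions within 200 bp, and peaks beyond 1000 bp are off the axis.

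The reverse view starts from the annotation. There were 901 pairs of divergent starts within 1000 bp of each other, and 668 of them (74.1%) had a narrow common region within 1000 bp of both. Another 137 (15.2%) had a common region over the width limit, 30 had a region in 1 or 2 lists only, and 66 (7.33%) had none. Of 15701 starts in no divergent pair, 33.6% had a narrow common region, 4.79% a wide one and 54.5% none. Most divergent pairs thus had a region found in every list, whereas most other starts had none within 1000 bp in any list. How many of either kind are transcribed in these cells was not measured.

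Regions that join gene ends had higher median ranks than those at 1 end. Their median rank was 66.0 in the DMSO list, 66.2 in the AZD2014 list and 65.8 in the rapamycin list. Regions at 1 gene end had medians of 59.0, 58.9 and 59.1, and regions at no gene end 27.9, 26.6 and 27.1. By arrangement, divergent regions stood highest, at 70.8, 71.8 and 72.1, and tail-to-head regions at 54.0, 52.9 and 53.6 were below regions at the start of a single gene (60.4, 60.7 and 60.6). The 8 regions at 2 ends had medians of 43.4, 45.6 and 39.2, and single far ends 30.0, 28.4 and 28.4. The quartile range of divergent regions overlapped those of tail-to-head regions and of single starts. It lay above those of regions at no gene end and at single far ends, since its lower quartile was 52.4, 53.7 and 52.5 and their upper quartiles were at most 47.8. Width moved with rank: the median peak in the set was 796, 963 and 910 bp wide, against 734, 917 and 859 bp at 1 gene end and 541, 680 and 640 bp at no gene end, and its part in the ranks was not tested.

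**Figure D3:**
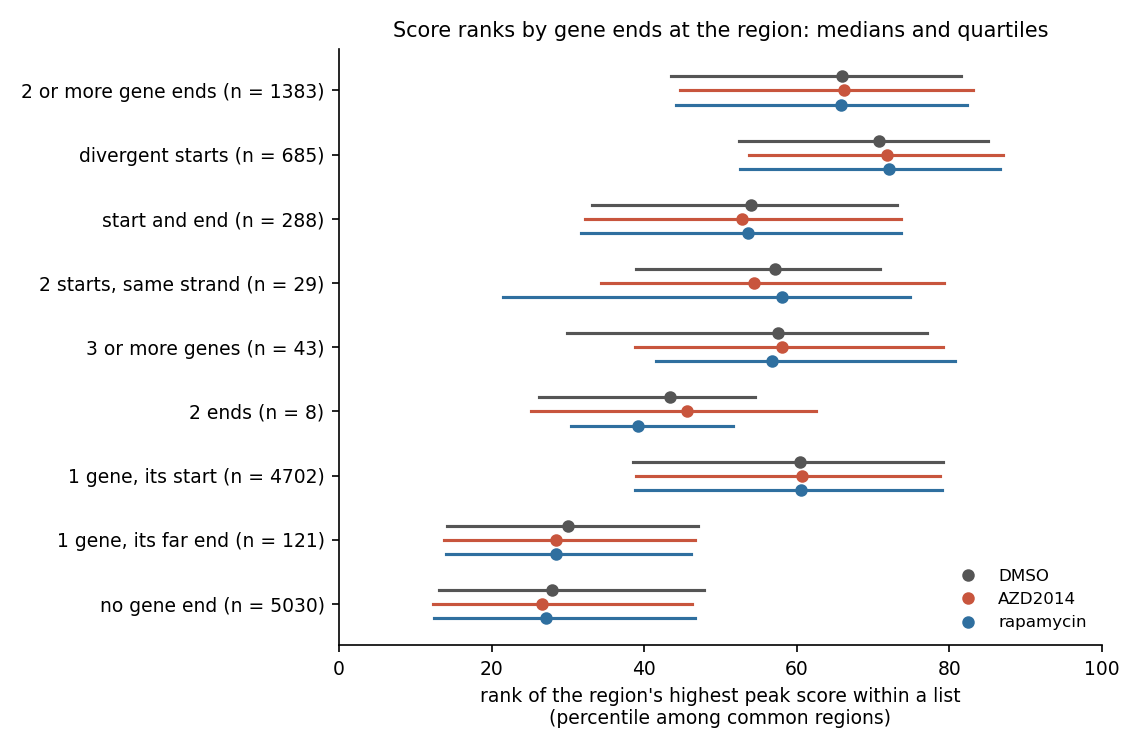
Median rank (dots) and quartiles (lines) in percentiles (x axis) for narrow common regions by the gene ends they touch (rows, with the number of regions), in the DMSO, AZD2014 and rapamycin lists. Divergent starts have the highest medians, 70.8 to 72.1, and regions at no gene end the lowest, 26.6 to 27.9.

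Median ranks of divergent regions were highest with starts 100 to 500 bp apart. Divergent regions with starts 100 to 200 bp apart had median ranks of 80.3, 81.6 and 81.3 (95 regions), and those 200 to 300 bp apart 80.6, 79.0 and 78.3 (48 regions). At 300 to 500 bp the medians were 76.6, 80.4 and 75.9 (37 regions). Starts 0 to 100 bp apart gave 70.6, 70.6 and 72.3 (231 regions), and overlapping pairs 64.6, 66.7 and 65.8. At 500 to 1000 bp the medians were 60.8, 66.4 and 61.8 in 18 regions, and at 1000 bp or more 66.6, 65.6 and 59.0 in 20. Quartiles of neighbouring bins overlapped.

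At the upper extreme, 120 of the 1383 regions (8.68%) ranked above 90 in every list, against 5.99% of regions at 1 gene end and 1.59% at none. Another 12 ranked below 10 in every list (0.868%), close to the 0.956% at 1 gene end, against 5.43% at no gene end and 342 of all 13670 common regions. The region at LOC114841036 and Fkbp2 (chr19:6979400-6980876) ranked 99.4, 99.7 and 99.6, with scores of 684, 1005 and 840. Fkbp2 encodes an FKBP prolyl isomerase of the endoplasmic reticulum, a relative of the protein that rapamycin binds. The region of Aldh6a1, a mitochondrial dehydrogenase of valine breakdown, and Lin52, a subunit of the DREAM cell cycle repressor, ranked 99.3, 99.7 and 99.6. Mettl25/Ccdc59, printed above, ranked 98.6, 98.8 and 98.9. Nup98, a nuclear pore protein, shared its region with Pgap2, which remodels GPI anchors, at 99.2, 98.5 and 99.6. Others in this top group were Septin4/Mtmr4, Rab5b/Pmel, Ubxn6/Hdgfl2, Srd5a1/Nsun2, Ap2a1/Tsks and Asb7/Lins1. The lowest rank of these 10 regions in any list was 98.5.

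The low extreme held known pairs as well. Surf1, an assembly factor of cytochrome oxidase, and Surf2 form one of the most studied head-to-head pairs, and their region (chr2:26916066-26916759) scored 52.15, 94.04 and 68.49, with ranks of 1.06, 11.1 and 8.45. Dync2h1/Dcun1d5, whose starts overlap by the most in the set, ranked 0.02 in the DMSO list, 3.9 in the AZD2014 list and 9.1 in the rapamycin list. Clec9a/Clec1a, both lectin receptors, and Mrps34/Nme3/Mapk8ip3 were also below 10 in every list. These regions just passed the authors' score minimum in at least 1 list.

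A list of 26 gene pairs was taken from textbook knowledge of head-to-head genes, although Nme1/Nme2 in it lie on the same strand, and 16 were joined by a region of the set. A strand was not given for every pair, as at Hars/Hars2, so other pairs of the list need not be head to head. Of the other 10, 5 were joined by a common region that was too wide for the rule, among them Brca1/Nbr1 (1786 bp), Gart/Son (1987 bp), Uchl5/Trove2 (1985 bp) and Pdcd10/Serpini1 (1918 bp). No common region joined Col4a1/Col4a2, Fanca/Spire2, Ddb2/Acp2, Tbp/Psmb1 or Nme1/Nme2. Col4a1 and Col4a2 encode collagens of basement membranes.

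Among the 16, chaperone, purine and DNA repair pairs stood near the top. Hspd1 and Hspe1 encode the mitochondrial chaperonin and its lid, and their region (chr1:55087361-55088764) scored 518 for DMSO, 608 for AZD2014 and 543 for rapamycin, with ranks of 97.1, 93.5 and 94.96. Ppat and Paics catalyse steps of purine synthesis, and their region ranked 96.3, 98.9 and 97.1. Mrpl18 of the mitochondrial ribosome and Tcp1 of the cytosolic chaperonin shared a region at 95.8, 94.3 and 96.4. All 3 regions were above 93 in each list, within 6 points over the lists.

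For DNA repair, Atm, the kinase that responds to double-strand breaks, and Npat, a coactivator of histone genes, were joined at 95.1, 95.9 and 93.8. Prkdc, the DNA-dependent kinase of end joining, shared its region with Mcm4, a subunit of the replicative helicase, at 90.1, 92.5 and 94.97. Palb2, which brings BRCA2 to breaks, and Dctn5, a dynactin subunit, ranked 79.0, 90.5 and 73.7, the least even of these repair pairs. Wrn, the helicase lost in Werner syndrome, and Purg stood at 86.2, 84.1 and 81.4. Trp53/Wrap53 ranked 66.0, 63.6 and 65.4 and Rad51c/Tex14 46.8, 58.2 and 62.8, and in both the region covered neither start.

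Lower pairs included Tk1, the S-phase thymidine kinase, with Afmid, at 18.2, 4.19 and 5.19. The histidyl-tRNA synthetases Hars (cytosolic) and Hars2 (mitochondrial) ranked 38.6, 37.0 and 18.4. Sars2, the mitochondrial seryl-tRNA synthetase, and Mrps12 of the mitochondrial small subunit stood higher, at 87.0, 89.5 and 84.2. Psmb9/Tap1 held the same place in each list, at 81.2, 81.1 and 81.8. Fen1, the nuclease that trims Okazaki fragments, and Tmem258 were in the middle, at 67.8, 69.8 and 64.4.

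Functions were counted with 24 gene lists, as the share of a list's genes with an end at a region of the set, beside 12.2% of all protein-coding genes. The share of genes at any common region is given too, since most lists also exceeded the 43.9% of all genes there. Replication-dependent histones had 35 of 67 genes in the set (52.2%, with 91.0% at a common region). Mitochondrial import had 13 of 25 (52.0%, 92.0%), complex I of the respiratory chain 23 of 45 (51.1%, 88.9%) and mitochondrial ribosomal proteins 33 of 78 (42.3%, 83.3%). Mitotic and cell cycle genes had nearly the same share at a common region, 94.1%, but 6 of 51 (11.8%) in the set. No HSC transcription factor of 28 was in it, although 15 of them had a common region. A count of 0 of 28 genes carries no test here.

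**Figure D4:**
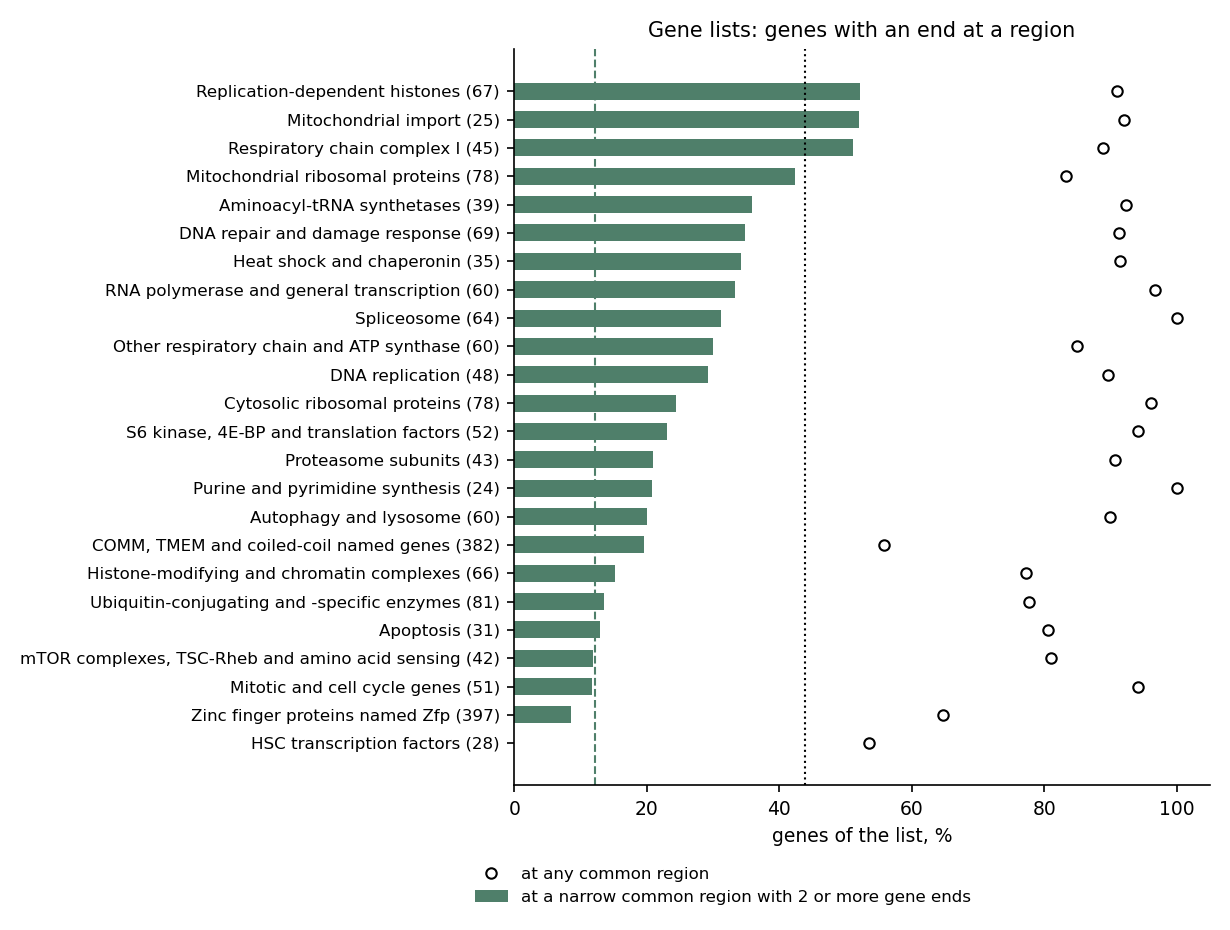
Percent of the genes of each list (rows, number of genes in brackets) with an end at a region of the set (bars) and at any common region (circles). The dashed line marks 12.2% and the dotted line 43.9%, the shares of all protein-coding genes; bars run from 52.2% for histones to 0% for HSC transcription factors.

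Between these extremes were aminoacyl-tRNA synthetases (14 of 39 genes), DNA repair (24 of 69), heat shock and chaperonin genes (12 of 35), RNA polymerase and general transcription (20 of 60) and the spliceosome (20 of 64). Other respiratory chain and ATP synthase genes had 18 of 60, DNA replication 14 of 48, cytosolic ribosomal proteins 19 of 78 and translation factors 12 of 52. Proteasome subunits had 9 of 43, purine and pyrimidine synthesis 5 of 24, and autophagy and lysosome genes 12 of 60. Genes named COMM, TMEM or coiled-coil had 75 of 382, chromatin complexes 10 of 66, ubiquitin enzymes 11 of 81 and apoptosis genes 4 of 31. Zinc finger genes named Zfp had 34 of 397 (8.56%), below the share of all genes. Each list here had 55.8% to 100% of its genes at a common region, against 43.9% of all genes. Of genes at a common region, 2673 of 9616 were in the set. On that base, cytosolic ribosomal proteins (19 of 75), translation factors (12 of 49) and proteasome genes (9 of 39) had smaller shares. So did purine and pyrimidine synthesis (5 of 24), autophagy (12 of 54), chromatin, ubiquitin, apoptosis and Zfp genes. The other lists here had larger ones.

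Joined genes were seldom of the same list. Outside the histones, the regions that joined members of 1 list included Hspd1/Hspe1, Ppat/Paics, Mrpl46/Mrps11, Hars/Hars2, Tmem205/Ccdc159 and 5 pairs of Zfp genes. Mrpl46 and Mrps11 belong to the large and small subunits of the mitochondrial ribosome, and their region ranked 59.7, 63.4 and 65.7.

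Histones were the exception. Of 20 regions at replication-dependent histone genes, which supply nucleosomes in S phase, 19 joined histones with each other. Their median ranks were 46.4, 45.9 and 53.7, below the 66.0, 66.2 and 65.8 of the whole set. The divergent H2A/H2B pairs stood above that: H2ac12/H2bc12 ranked 84.3, 77.6 and 79.9, H2ac22/H2bc22 80.5, 78.3 and 67.2, and H2ac15/H2bc15 70.1, 75.9 and 86.7. Same-strand neighbours were lower, as at H2ac23/H4c17, with 11.1, 10.9 and 0.06, and H2ac10/H3c8, with 41.7, 23.9 and 1.35. Histone genes are near copies of each other, and no source used here says how reads that fit several copies were placed.

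Mitochondrial genes were spread over all ranks. The 24 regions of complex I had medians of 61.1, 61.8 and 62.1 and those of mitochondrial ribosomal proteins 59.7, 58.8 and 62.1. Tepsin/Ndufaf8, with a complex I assembly factor, ranked 92.6, 89.3 and 90.2, and Mrps18b/Ppp1r10 98.0, 97.2 and 93.6. At the other end, Ndufs3/Kbtbd4, with a core subunit of complex I, ranked 1.61, 32.5 and 51.6. Mrpl47/Ndufb5 joined a mitochondrial ribosomal gene with a complex I gene at 86.3, 88.0 and 94.3, and Ndufs6/Mrpl36 did so at 30.2, 25.2 and 50.05. Tomm20, the receptor of mitochondrial import, met Rbm34 at 89.0, 88.7 and 87.8.

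Genes of DNA replication and repair had higher medians. Replication regions stood at 84.1, 77.7 and 80.7 over 14 regions, and repair regions at 85.9, 82.7 and 82.1 over 25. Pcna, the sliding clamp of DNA polymerases, met Cds2 at 95.5, 97.1 and 96.6, and Rpa3/Umad1 ranked 93.2, 96.5 and 96.1. Xrcc4, which serves end joining, and Tmem167 ranked 95.6, 92.7 and 96.6. Lig4/Abhd13, at the ligase of end joining, had a region that ranked 93.8 in the DMSO list, 73.9 in the AZD2014 list and 72.1 in the rapamycin list. A second region there was at 7.6, 10.4 and 11.2.

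Genes of the drugs' own pathway lay at the set about as often as all genes, although more of them lay at a common region. Of 42 genes of mTOR complexes, TSC-Rheb and amino acid sensing, 5 did (11.9%, against 12.2% of all protein-coding genes). At any common region lay 34 of the 42 (81.0%), against 43.9% of all genes. Of genes at a common region, 5 of 34 were thus in the set, a smaller share than the 2673 of 9616 for all genes. Sesn1, a leucine sensor that restrains mTOR complex 1, met Cep57l1 at 90.3, 90.4 and 92.0. Lamtor1, which anchors the Ragulator complex on lysosomes, met Tomt at 80.2, 83.6 and 78.2. Nprl2 of the GATOR1 complex and Cyb561d2 ranked 76.0, 68.6 and 75.7, and Mtor/Exosc10 26.7, 34.9 and 31.5. None of the 5 shifted by more than 10 points in any comparison, a count too small to show stability. Of all common regions, 17.3% to 20.3% passed that shift in each direction of a comparison. Downstream, the region of Rps6kb1, the S6 kinase, and Tubd1 ranked 78.4, 81.6 and 81.9, and Rps6kb2/Carns1 21.5, 28.5 and 23.3. Eif2s1, a subunit of the initiation factor eIF2, and Atp6v1d, a subunit of the lysosomal proton pump, were joined at 97.4, 96.3 and 96.9.

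Between treatments, ranks were compared as differences in points, and a shift was counted past 10 points. In the AZD2014 list 270 regions of the set ranked more than 10 points higher than in the DMSO list (19.5%), against 19.1% of all common regions and 18.8% of those at 1 gene end. Lower ranks were seen for 209 (15.1%), against 19.2% and 17.4%. With percentiles taken among all peaks of each list, which differ in length, 425 were higher (30.7%) and 44 lower (3.18%), against 35.3% and 5.71% of all common regions. The share higher was thus near the background or below it, and the share lower was below it on both scales. Ranks of the 1383 regions in both lists had a Spearman correlation of 0.904 as a description, without the regions being independent.

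In the rapamycin list 264 regions were more than 10 points higher than in the DMSO list (19.1%), against 20.3% of all common regions and 20.4% of those at 1 gene end. Another 229 were lower (16.6%), against 20.2% and 18.6%. Among all peaks of each list the counts were 269 (19.5%) and 148 (10.7%), against 22.9% and 14.6% of all common regions. Both drug comparisons share the DMSO library. Between the drug lists, 209 ranked more than 10 points higher in the AZD2014 list (15.1%, against 17.3% of all common regions and 16.5% of those at 1 gene end) and 182 lower (13.2%, against 17.4% and 17%). Among all peaks of each list these counts were 300 (21.7%) and 50 (3.62%), against 28.5% and 6.32% of all common regions. The doses of the drugs differ, so these values stand side by side.

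A region near the top of a list has little room to rank higher, so shifts were also read from equal ranks. Held at equal ranks in the DMSO list, regions of the set at ranks 20 to 40 were higher in the AZD2014 list in 35.6% of cases, against 28.8% at 1 gene end and 18.9% at no gene end. They were lower in 19.1%, against 20.8% and 35.9%. For rapamycin the same band gave 33.5% higher, against 32.7% and 19.9%, and 20.2% lower, against 23.3% and 37.4%. At ranks 80 to 100, 8.2% were lower in the AZD2014 list, against 11.9% at 1 gene end and 22.9% at no gene end. For AZD2014, the excess of higher ranks over 1 gene end was not in every band. Shares higher in the set and at 1 gene end were 43.9% and 44.3% at ranks 0 to 20. They were 28.3% and 21.9% at 40 to 60, 15.8% and 13.0% at 60 to 80, and 1.79% and 1.72% at 80 to 100. The same was then read from equal ranks in a drug list. At ranks 20 to 40 in the AZD2014 list, regions at no gene end were lower in the DMSO list in 30.4%, against 25.6% of the set and 23.5% at 1 gene end. At those ranks in the rapamycin list they were lower in the DMSO list in 33.0%, against 24.6% and 28.2%. Of the set at those ranks in the AZD2014 list, 26.7% were higher in the DMSO list, against 27.5% at 1 gene end and 22.0% at no gene end. From the rapamycin list these shares were 28.3%, 28.5% and 23.5%. In this view the set thus had no excess of higher ranks over regions at 1 gene end, but stood above regions at no gene end. Regions at no gene end were thus lower most often in this band whichever list was held equal. The band at 60 to 80 differed. Held in the DMSO list, 33.8% of regions at no gene end were lower in the AZD2014 list, against 19.1% of the set. Held in the AZD2014 list, 22.9% were lower in the DMSO list, against 23.5% of the set. What sets these shares was not tested. At ranks 80 to 100 in the AZD2014 list, 13.8% of the set were lower in the DMSO list, against 11.9% at 1 gene end and 13.4% at no gene end.

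By arrangement, 12.7% of divergent regions were more than 10 points lower in the AZD2014 list than in the DMSO list and 14.3% in the rapamycin list. For tail-to-head regions the shares were 22.6% and 23.3%, nearer the 19.2% and 20.2% of all common regions. Their 95% Wilson intervals for AZD2014 were 10.4% to 15.4% and 18.1% to 27.7%, which cover counting error over regions only. Shares more than 10 points higher were closer, at 18.8% of divergent and 17.4% of tail-to-head regions for AZD2014 and 18.5% and 17.4% for rapamycin. Ranks differed by arrangement too (medians of 70.8 and 54.0 in the DMSO list), and the part of this was not tested. In all, 620 regions of the set (44.8%) stayed within 10 points over the 3 lists, against 40.2% at 1 gene end and 28.9% at none, and 70 ranged over more than 30 points (5.06%, against 5.87% at 1 gene end, 9.30% at none and 7.05% of all common regions).

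**Figure D5:**
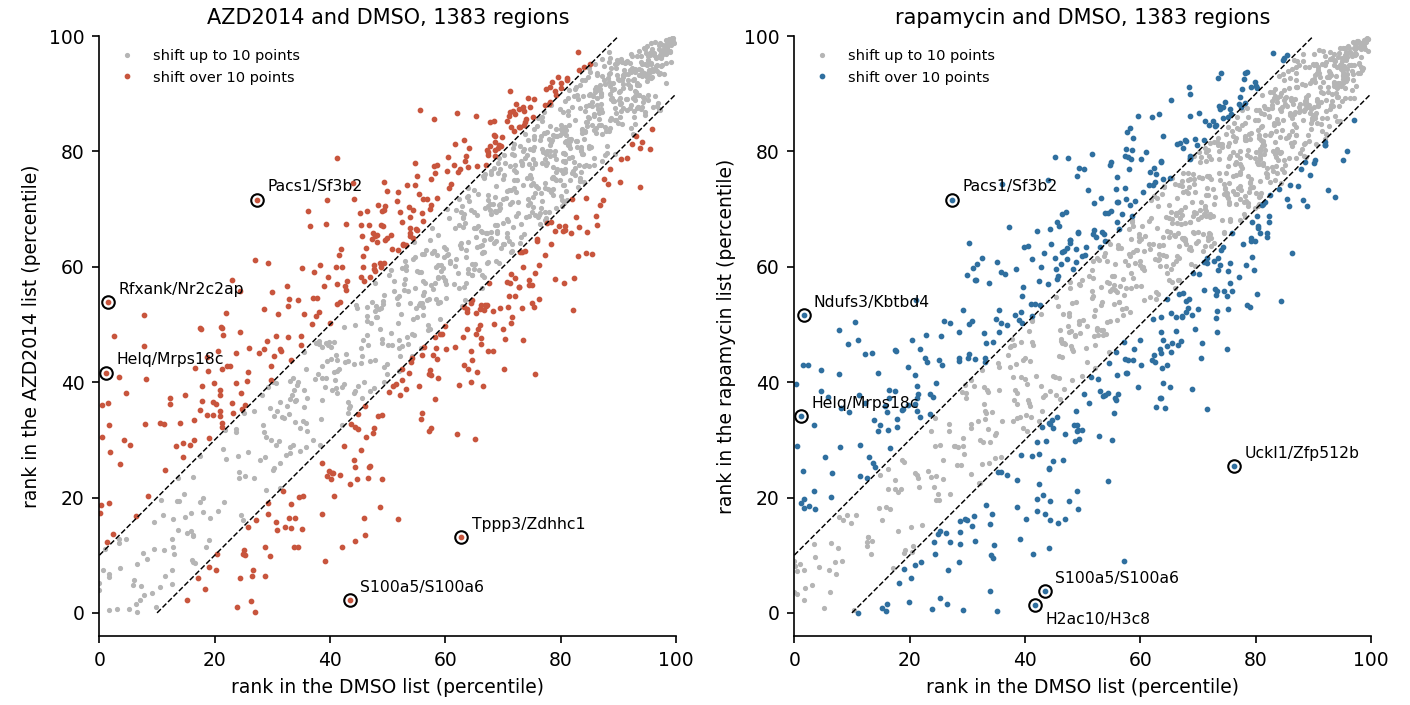
Rank of each of the 1383 regions in the DMSO list (x axis, percentile) and in the AZD2014 list (left) or the rapamycin list (right, y axes, percentiles). Dashed lines mark 10 points, coloured points lie beyond them (270 higher and 209 lower for AZD2014, 264 and 229 for rapamycin), and circled regions are among those with the largest shifts.

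The regions with the largest shifts are named as extremes of 1383 and without a test. Rfxank, a subunit of the RFX factor that controls MHC class II genes, and Nr2c2ap met at a region (chr8:70130966-70132006) that scored 53.0, 254.6 and 104.3, and ranked 1.49 for DMSO, 53.9 for AZD2014 and 24.7 for rapamycin. Pacs1, a sorting adaptor, and Sf3b2, a splicing factor subunit, ranked higher in both drug lists, at 27.4, 71.7 and 71.6. Helq, a DNA helicase, and Mrps18c ranked 1.15, 41.7 and 34.1. Trmt5, a tRNA methyltransferase, and Slc38a6 ranked 7.81, 46.2 and 49.1. Pacs1/Sf3b2 was thus below the middle in the DMSO list and above it in both others. The other regions named here were near the bottom of the DMSO list and nearer the middle in both others. In all 4 the single peak was wider too: 390 bp in the DMSO list at Helq/Mrps18c, against 711 and 742 bp.

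Other large shifts upward were Bloc1s2/Pkd2l1, with 2.5, 47.9 and 18.6, and Tatdn3/Nsl1, with 7.7, 51.6 and 41.5, where Nsl1 is a kinetochore protein. For rapamycin, Ndufs3/Kbtbd4 ranked 1.61 for DMSO and 51.6 for rapamycin, and Oscar/Ndufa3 2.4 and 42.9. All of these started below 8 in the DMSO list, close to the score minimum.

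Shifts downward started higher. The tail-to-head region of the calcium-binding genes S100a5 and S100a6 (chr3:90612067-90613479) scored 138.5 for DMSO, 61.8 for AZD2014 and 58.9 for rapamycin, with ranks of 43.5, 2.25 and 3.76. Tppp3/Zdhhc1 ranked 62.7, 13.1 and 35.7. Fbxl6/Slc52a2, with a riboflavin transporter, ranked 75.6, 41.4 and 60.6. Under rapamycin, Uckl1/Zfp512b ranked 25.4, against 76.2 for DMSO and 54.4 for AZD2014, and Rassf1/Tusc2, a pair of tumour suppressor candidates, 35.4, against 71.5 and 51.3. Slc35c2/Elmo2 ranked 35.1, 14.6 and 0.30. S100a5/S100a6 was thus at the bottom of both drug lists, whereas the others differed between them.

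Some regions ranked far apart in the 2 drug lists. Scamp2/Ulk3, with a kinase related to autophagy kinases, ranked 51.7 for DMSO and 55.8 for rapamycin but 16.3 for AZD2014. Hspa1a/Hspa1l, both HSP70 chaperones, ranked 63.4 and 78.4 for DMSO and AZD2014 and 45.7 for rapamycin. Cgas, the sensor of cytosolic DNA, and Mto1, which modifies mitochondrial tRNA, ranked 19.9, 39.9 and 1.81. Aifm3/Lztr1 ranked 45.6, 59.96 and 15.6. In the other direction, Ifnar2, a chain of the type I interferon receptor, and Il10rb, a chain of the interleukin 10 receptor, ranked 5.85 and 4.77 but 37.5 for rapamycin. Taf6/Cnpy4 ranked 50.9, 39.4 and 73.4. Also lower in the AZD2014 than in the rapamycin list were Pacs2/Tex22 (15.8 and 46.6) and Tcte2/Afdn (17.0 and 47.3), and higher were Ttll13/Ngrn (42.3 and 10.2) and Igfbp6/Soat2 (36.3 and 6.0).

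By function, shifts past 10 points were counted in each list of genes. Of 24 complex I regions, 5 were higher and 5 lower for AZD2014 against DMSO and 9 were higher and 3 lower for rapamycin. Of 35 regions at mitochondrial ribosomal proteins, 11 were higher and 4 lower in each drug comparison, which share the DMSO library. Of 76 regions at genes named COMM, TMEM or coiled-coil, 20 were higher in each drug list, with 9 lower for AZD2014 and 5 for rapamycin. The 12 heat shock and chaperonin regions gave 2 higher and 1 lower for AZD2014 and 0 higher and 3 lower for rapamycin. The 13 autophagy and lysosome regions gave 2 higher and 4 lower, then 2 higher and 0 lower. Counts this small are read beside the 19.1% and 19.2% of all common regions past 10 points for AZD2014, and 20.3% and 20.2% for rapamycin.

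Promoters of the joined genes were searched for 14 motifs on both strands, in 300-base windows from 250 bases before to 50 after a start. The sets were 1282 promoters of divergent regions, 284 of tail-to-head regions and 4584 of single-gene starts at narrow common regions, beside all 17492 promoters of the table. Windows of a divergent pair often overlap, so the 2 genes can share a match. The ETS letters CCGGAAGT were in 15.8% of divergent promoters, 14.4% of tail-to-head promoters, 9.29% of single starts and 5.28% of all promoters. YY1 letters, AAGATGGCG, were in 5.93%, 3.52%, 3.47% and 1.92%, in that order, and the CTCGCGAG palindrome known from Kaiso in 3.74%, 2.11%, 2.16% and 1.31%. The TATA box, TATAAA, was in 5.07%, 6.34%, 6.09% and 13.3%. Divergent promoters thus held ETS and YY1 letters more often than promoters of single starts, and TATA letters at a similar share.

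For the other letters, divergent promoters lay nearer to single starts than to all promoters, except for the CCAAT box, whose share was similar in each set. SP/KLF, GGGCGG, was in 67.1% of divergent promoters, 72.2% of tail-to-head promoters, 70.9% of single starts and 46.3% of all promoters, and the CCAAT box in 40.7%, 42.3%, 41.9% and 39.2%. NRF1, GCATGCGC, was in 6.08%, 6.34%, 7.16% and 3.61%. The CRE, TGACGTCA, was in 4.13% of divergent promoters, 4.17% of single starts and 2.33% of all promoters, and its first 6 letters TGACGT, which every CRE contains, in 15.3%, 13.9% and 8.71%. The E-box CACGTG was in 11.6%, 10.95% and 7.91%, in the same order, and ZNF143 letters ACTACAATT in 1.09%, 0.873% and 0.543%. RUNX letters TGTGGTT were in 2.57% of divergent promoters, 3.64% of single starts and 4.83% of all promoters, GATA letters AGATAAG in 1.17%, 1.75% and 2.63%, and AP-1 letters TGANTCA in 3.35%, 4.14% and 7.03%. Median GC content was 62.3% in divergent promoters, 61.7% in single starts and 56.3% in all promoters, so base composition moves with these shares, and its part was not tested.

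Median ranks were higher with a CCAAT box and lower with AP-1 letters or an E-box. The 316 divergent regions with a CCAAT box in either promoter had median ranks of 78.0, 78.9 and 78.7, against 66.6, 68.2 and 67.8 for the 301 without. With an SP/KLF match the medians were 73.1, 75.2 and 74.5 in 488 regions, against 65.0, 62.3 and 66.6 in 129. For ETS they were 70.6, 71.3 and 69.1 with a match and 71.9, 73.0 and 73.8 without, although ETS letters were the more frequent in divergent promoters. For AP-1 they were 60.1, 64.4 and 62.0 in 36 regions with a match, against 71.9, 73.2 and 73.0 without. For the E-box they were 66.1, 64.6 and 68.7 in 102 regions, against 72.5, 74.1 and 73.7. The distance between starts, which also went with rank, was not held equal here, and its part was not tested. CCAAT boxes were in each of the 5 H2A/H2B stretches that could be read from start to start, with 2 to 5 of them, no SP/KLF match and a GC content of 38.7% to 45.6%. Of 281 start-to-start stretches of at least 50 bp, 36 held none of the letters searched.

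At the width limit, regions on both sides mostly ranked high. The widest in the set were L3hypdh/Jkamp and Tbcb/Polr2i/Ovol3 at 1499 bp, with ranks of 98.9, 97.5 and 98.3 and of 75.9, 84.4 and 83.5. Of the 5 widest, only Ndufb1/Cpsf2 at 1497 bp was lower, with 63.7, 52.7 and 37.2. The first left out by width was Rab2b/Tox4 at 1501 bp, with 98.1, 96.6 and 95.3, and the first 5 left out, up to 1508 bp, had ranks from 82.7 to 98.1. Of regions at 1 gene end, 30 had the end of a second gene up to 100 bp outside the window. The 243 wider common regions at 2 or more gene ends had median ranks of 86.9, 87.3 and 89.3, so the width limit removed high-ranking regions.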

How the data were processed

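ATAC-seq of 3 libraries (DMSO, AZD2014 and rapamycin, 1 each) was used, with groups taken from the sample titles. The authors deposited 1 peak list for each library, so peaks were called per sample. Each peak carries a score, the authors' deposited value, never below 50, whose scale no source states. The submitters' processing notes list CASAVA and mm10. No source used here gives the aligner, caller settings, duplicate handling, read shift or any control, and these set how many weak peaks are listed and how wide they are.

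Peaks overlapping by at least 1 bp were merged across the lists, and genes were the outermost RefSeq bounds on GRCm38.p6. Strand and 300-base promoter windows came from the RefSeq promoter table, for 17492 of 21887 genes. A region took its highest peak score, ranked as a percentile among common regions. Motif shares used 1 promoter for each gene, with its start within 1000 bp of the region. Intervals are 95% Wilson intervals.

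Members, gene lists and pairs were chosen with earlier results of these data known. Named regions were the 10 with the highest lowest rank, the 5 largest shifts each way in each comparison, pairs of the textbook list, the 2 highest of each gene list, the 5 with most genes, the 3 lowest of each list, and the narrowest and widest. Any other region was named with its values already seen. Some regions that met this rule are not reported here. Alternatives covered the window, width, list length, percentile base and shift threshold. Merging, gene-end assignment and ranking were tested on simulated data. Python 3.11.15, numpy 2.4.6, pandas 2.3.3, scipy 1.17.1 and matplotlib 3.10.9 were used.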

Additional observations from a re-analysis of the deposited data

How the results depend on the processing

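No paired analysis was possible because each condition had 1 library, and for the same reason no library could be left out and no test made. Of narrow common regions, 11.2% joined gene ends. This share was 9.44% with a gene-end window of 500 bp and 15.6% with 2500 bp, 7.94% with a width limit of 1000 bp (610 regions), 11.9% with no width limit, 16.0% in the upper 50% of each list, and 10.3% without Gm and Rik genes. Median ranks were 67.9, 68.7 and 68.5 for DMSO, AZD2014 and rapamycin with 500 bp and 62.7, 62.5 and 63.1 with 2500 bp. Divergent regions were 49.5% of the set, 55.1% with 500 bp and 67.8% of fully stranded regions, tail-to-head regions 20.8%, 17.3% and 28.5%, and regions at 2 ends 0.0855% with 500 bp. With percentiles among all peaks of a list, shifts were 425 higher and 44 lower for AZD2014 against DMSO, 148 lower for rapamycin against DMSO and 50 lower for AZD2014 against rapamycin. The lists differ in length, and the cause of this change was not tested. With 5 points the counts were 440 and 366, 448 and 382, and 377 and 362, in the same order of comparisons, and with 20 points 81 and 58, 92 and 64, and 57 and 44. The other 35 values were within 1.5 times of the main count or, for shares and medians, within its 95% interval. Among these counts were 1927 regions with 2500 bp, 1043 in the upper 50% of each list, and 300 shifts higher for AZD2014 against rapamycin among all peaks. The width limit, the window and the scale of the ranks therefore set these numbers, and with unknown read totals the depth limit of each list is unknown.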
